A study of Rattus norvegicus with 12 samples.

Results

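Mitoplasts, mitochondria whose outer membrane has been removed, were compared with whole mitochondria treated with proteinase K, an enzyme that digests exposed protein. The libraries were taken by their titles and column names: 3 of mitoplasts (mitoplast_RNase) and 3 of proteinase K-treated mitochondria (IP_RNase_ProK), 6 of the 12 libraries of the series. Of the 30560 genes in the deposited table, 26483 (86.7%) had enough counts to be tested. All material came from the hindlimb muscle of 1 wild-type male Wistar Kyoto rat aged 14 weeks (the design text names the gastrocnemius), homogenised and pooled, so the libraries of a group are aliquots of 1 homogenate, and a p-value here speaks of the spread between preparations and not between animals. Both groups were captured with magnetic beads by immunoprecipitation and treated with RNase A, which digests RNA outside an intact membrane. The mitoplasts received no proteinase K. The groups therefore differ in 2 ways at once, the outer membrane and the protease, and the effects of these cannot be told apart here. The remaining libraries were 3 of captured mitochondria given RNase A alone (IP_RNase) and 3 of crude mitochondria from differential centrifugation given RNase A (crude_RNase). Libraries were made with a ribosomal RNA-depleting kit from 40 ng of RNA for the captured preparations and 6.3 ng for the crude ones.

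A mitochondrion has a smooth outer membrane, which carries channel proteins, import receptors and proteins that tether it to other organelles, and a folded inner membrane around the matrix. The matrix holds the mitochondrial genome, whose transcripts are the mRNAs for core subunits of the respiratory chain and ATP synthase, 2 ribosomal RNAs and the transfer RNAs. Nearly all other mitochondrial proteins are made from nuclear genes in the cytosol, and some of their mRNAs are translated at the outer surface. RNA that lies outside the organelle is open to RNase A unless protein shields it, and RNA of the matrix is enclosed by the inner membrane in both preparations.

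The 6 libraries held 3705192 to 4563254 counts. In each of them, 96.3% to 96.7% of the genes in the table had at least 1 count. Olfactory receptor genes, which have no known main role in muscle, were counted too: 98.9% to 99.3% of these 1117 genes had a count, with a median of 38 to 49 counts per gene against 79 to 97 over all genes of the same libraries. They took 1.49% to 1.59% of the counts in mitoplasts and 1.56% to 1.58% in proteinase K-treated mitochondria. Gene lengths were not used, and the part of such evenly spread counts in the nuclear gene results was not tested. All 40 sarcomere genes in the table passed the filter on low counts. So did 1099 of the 1117 olfactory receptor genes, so passing the filter does not check the muscle label. The sarcomere genes took 0.482% to 0.735% of the counts of these 6 libraries and 0.767% to 1.49% in crude mitochondria. Across 19222 genes with a mean of at least 50 counts, the correlation of log2-scaled counts (CPM, counts scaled to a common library size) was 0.975 to 0.979 between a mitoplast and a proteinase K library, 0.975 to 0.979 within mitoplasts and 0.977 to 0.979 within proteinase K-treated mitochondria. As a description, libraries of different groups were thus as alike as libraries of the same group.

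No gene passed the threshold between mitoplasts and proteinase K-treated mitochondria. With edgeR's quasi-likelihood test on all 12 libraries and Benjamini-Hochberg adjustment, 0 genes were higher (0% of those tested) and 0 were lower (0%) at an adjusted p under 0.05, and the smallest adjusted p was 0.540. At an unadjusted p under 0.05, 384 genes (1.45%) were higher in mitoplasts and 357 (1.35%) lower, 741 (2.80%) in all. DESeq2 on the same 12 libraries also called 0 in each direction, with 120 higher and 121 lower at an unadjusted p under 0.05. The CPM of the groups did not overlap for 1246 genes higher in mitoplasts (4.70%) and 1260 lower (4.76%). The median log2 difference (mitoplast minus proteinase K) over all genes was 0.00, and 90% of the plotted genes lay between -0.27 and 0.27.

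**Figure D1:**
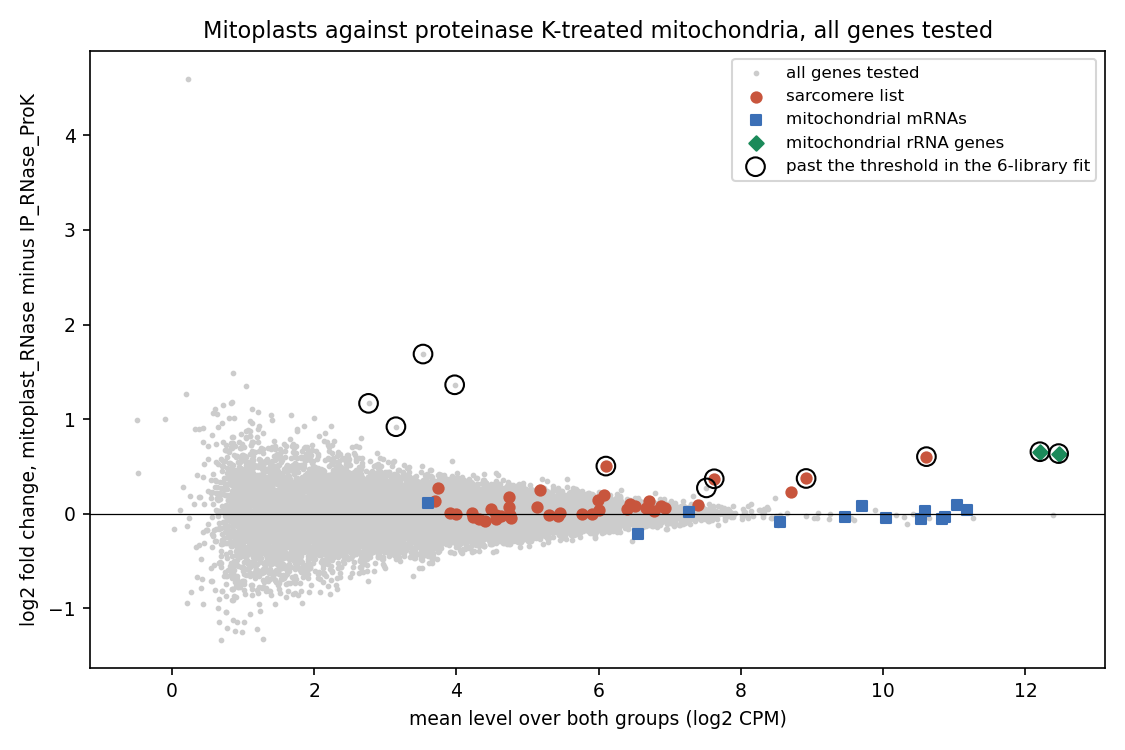
Log2 fold change (mitoplast_RNase minus IP_RNase_ProK) against the mean level of both groups in log2 CPM, for the 26483 genes tested (grey), the sarcomere list (red), the 13 mitochondrial mRNAs (blue) and the 2 mitochondrial rRNA genes (green). Rings mark the 11 genes past the threshold when only these 6 libraries were fitted; the 13 mRNAs lie near 0, and the highest grey point is AABR07064622.1, with a mean of 5.67 counts and overlapping groups.

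The data bounded most differences in counts closely. The 95% interval of the log2 difference lay within -1 and 1, a change of at most 2-fold either way, for 25023 genes (94.5%). Among genes with a mean of at least 50 counts this held for 19216 of 19222, with a median half-width of 0.23. Below 50 counts it held for 79.98% of 7261 genes, with a median half-width of 0.55. It also held for 1055 of the 1099 tested olfactory receptor genes. A narrow interval therefore bounds the counts of a gene and does not show that they come from RNA of the organelle. Differences above 1 on the log2 scale were estimated for 21 genes and below -1 for 14.

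For comparison, the same fit set each group against the captured mitochondria given RNase A alone. Mitoplasts had 6 genes higher (0.0227%) and 35 lower (0.132%), and proteinase K-treated mitochondria had 8 higher (0.0302%) and 29 lower (0.110%). Both comparisons share the 3 IP_RNase libraries, so their values are given side by side and not as separate evidence.

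The 13 mRNAs of the mitochondrial genome took nearly equal shares of the counts in both preparations. They made up 1.89%, 1.84% and 1.51% of the counts of mitoplasts 1, 2 and 3, a mean of 1.74% ± 0.207 (SD, n = 3). In proteinase K-treated mitochondria 1, 2 and 3 they made up 1.49%, 1.71% and 2.07%, a mean of 1.76% ± 0.294 (SD, n = 3). The ranges overlapped, with the lowest and the highest library both in the proteinase K group. The difference was -0.0108 percentage points (two-sided exact permutation test, p = 1, adjusted over 3 measures p = 1), and 3 against 3 libraries cannot give a p below 0.1. In IP_RNase the share was 3.85%, 2.56% and 5.59%, above every library of both groups. All 7 complex I mRNAs of the mitochondrial genome and all 4 of complexes III and IV were lower than in IP_RNase in each comparison, with median log2 differences of -1.26 and -1.24 in mitoplasts and -1.21 and -1.27 with proteinase K. The 2 ATP synthase mRNAs had medians of -0.97 and -1.07, with 1 past the threshold in mitoplasts and 2 with proteinase K.

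Between the 2 preparations, 0 of the 13 mRNAs passed the test, 6 had a positive and 7 a negative difference, and their median was -0.03 against 0.00 over all genes tested. No mRNA had groups that did not overlap. Over the 13 intervals the lowest bound was -0.56 and the highest 0.56.

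Mt-nd3, a small core subunit of complex I, had the most negative difference. Its level was 102, 85.2 and 72.1 CPM in mitoplasts and 91.4, 94.0 and 117 CPM in proteinase K-treated mitochondria, with mitoplast 1 inside the range of the other group. The log2 difference was -0.22 ± 0.169 (SE; 95% interval -0.56 to 0.12). Mt-nd5, the large proton-pumping subunit of the same complex, was at 2552, 2537 and 1987 CPM in mitoplasts and 1878, 2312 and 2704 CPM with proteinase K. These ranges overlapped as well, and the difference was 0.04 ± 0.218 (interval -0.40 to 0.47). Mt-nd6, the 1 mRNA of the set encoded on the light strand, had 383, 426 and 286 CPM in mitoplasts against 344, 411 and 407 CPM, a difference of -0.08 ± 0.178 (interval -0.44 to 0.27). The ranges of the groups thus overlapped for each of these complex I genes.

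Mt-cyb, the cytochrome b of complex III, was at 1986, 1906 and 1667 CPM in mitoplasts and 1634, 1813 and 2263 CPM with proteinase K, with a difference of -0.04 ± 0.198. Mt-co1, the catalytic subunit of cytochrome c oxidase, was at 2523, 2233 and 1762 CPM and 1610, 1940 and 2578 CPM, with a difference of 0.09 ± 0.230 and an interval of -0.37 to 0.55. In both genes proteinase K library 3 was the highest and proteinase K library 1 the lowest of the 6. Mt-atp6, the proton channel subunit of ATP synthase, differed by 0.09 ± 0.193, and Mt-atp8, a small subunit of the same enzyme, by 0.11 ± 0.224, with counts of 75, 62 and 46 against 60, 61 and 52. The other 6 mRNAs, Mt-nd1, Mt-nd2, Mt-nd4, Mt-nd4l, Mt-co2 and Mt-co3, had differences from -0.06 to 0.03. The sign of 12 of the 13 changed when single libraries were left out.

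**Figure D2:**
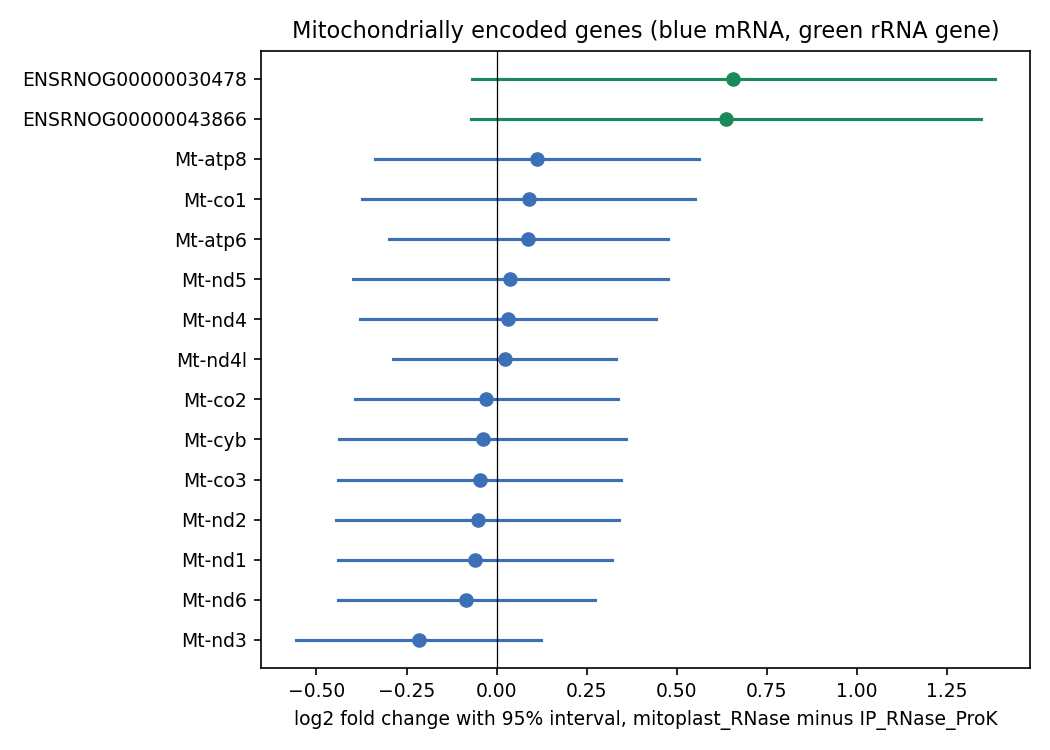
Log2 fold change (mitoplast_RNase minus IP_RNase_ProK, points) with its 95% interval (lines) from the fit of all 12 libraries, for the 13 mitochondrial mRNAs (blue) and the 2 mitochondrial rRNA genes (green). All 13 mRNA intervals span 0, and both rRNA genes lie above 0.6 with lower bounds just under 0.

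The mitochondrial ribosomal RNAs had higher mean levels in mitoplasts, with overlapping groups. The gene ENSRNOG00000043866 was at 9055, 6921 and 4695 CPM in mitoplasts 1, 2 and 3 and at 2597, 4852 and 5846 CPM in proteinase K libraries 1, 2 and 3. The gene ENSRNOG00000030478 was at 7940, 5825 and 3554 CPM and at 2010, 4284 and 4695 CPM. In both genes mitoplasts 1 and 2 were above the highest proteinase K library, mitoplast 3 lay inside the other range, and proteinase K library 1 was the lowest of all. The log2 differences were 0.64 ± 0.353 (interval -0.07 to 1.34) and 0.66 ± 0.362 (interval -0.07 to 1.38), and edgeR's adjusted p with Benjamini-Hochberg was 1.00 for each on all 12 libraries. The median of the 2 differences, 0.65, was 0.37 without mitoplast 1 and 0.36 without proteinase K library 1, and 0.88 without mitoplast 3 or without proteinase K library 3. Against IP_RNase the 2 genes differed by -0.87 and -0.69 in mitoplasts and by -1.51 and -1.35 with proteinase K, none of them past the threshold. The kit depletes ribosomal RNA, and how far the depletion differed between libraries was not tested.

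The rRNA genes took 2.05%, 1.55% and 1.01% of the counts in mitoplasts, a mean of 1.53% ± 0.523, and 0.566%, 1.11% and 1.28% with proteinase K, a mean of 0.988% ± 0.375 (SD, n = 3 each). The difference of 0.547 percentage points had an exact two-sided permutation p of 0.3 (adjusted p = 0.45). Taken as a ratio to the mRNA counts of the same library, which removes the scaling between libraries, the groups did not overlap. The log2 ratio of rRNA to mRNA counts was 0.12, -0.25 and -0.58 in mitoplasts and -1.39, -0.62 and -0.69 with proteinase K. The lowest mitoplast library was only just above the highest proteinase K library. The difference was 0.66, and its exact two-sided permutation p of 0.1 is the smallest that 3 against 3 libraries can give (adjusted p = 0.3). The difference was 0.41 without proteinase K library 1. In IP_RNase the log2 ratio was -1.44, -1.73 and -0.07, a range that held all 3 proteinase K libraries and 2 of the 3 mitoplast libraries.

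**Figure D3:**
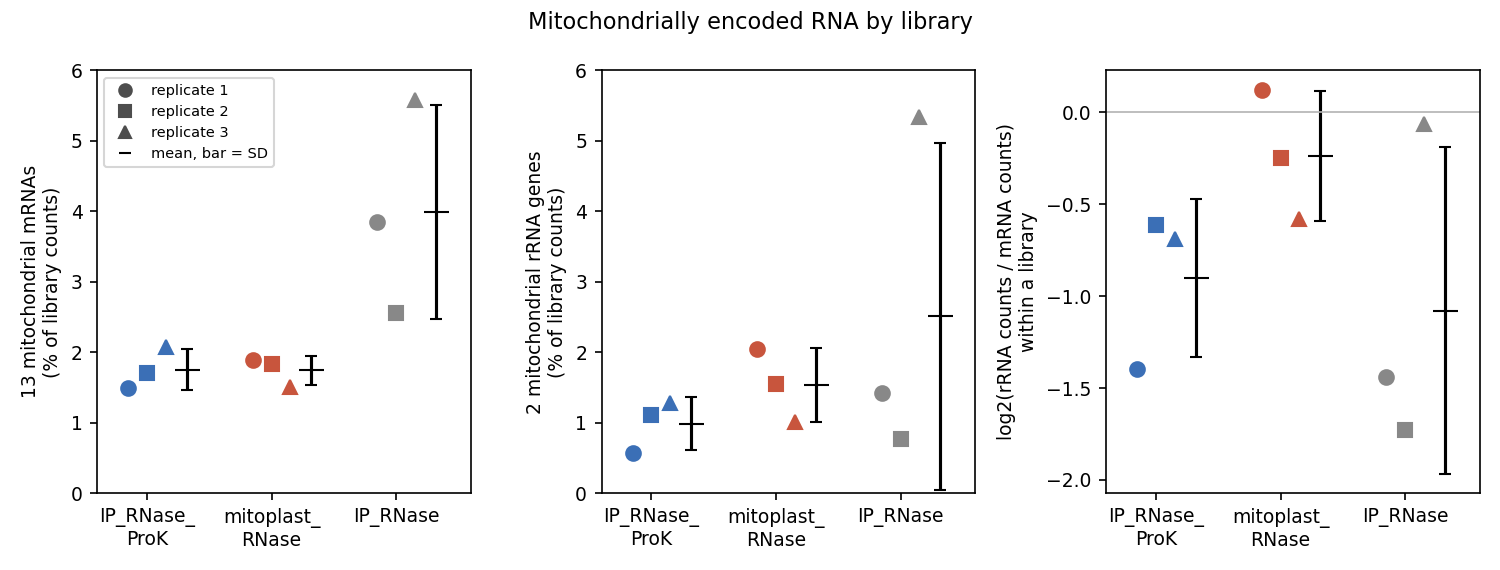
Share of library counts in the 13 mitochondrial mRNAs (left, percent), in the 2 mitochondrial rRNA genes (middle, percent) and the log2 ratio of rRNA to mRNA counts (right), for each library of IP_RNase_ProK, mitoplast_RNase and IP_RNase; bars are mean and SD. The mRNA shares of the mitoplasts, 1.51% to 1.89%, lie within those of IP_RNase_ProK, 1.49% to 2.07%, while the log2 ratios of the mitoplasts, -0.58 to 0.12, lie just above those of IP_RNase_ProK, -1.39 to -0.62.

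Since the outer membrane is the structure that mitoplasts lack, the genes of its proteins were taken as a list, as were those of the compartments within. Of 42 tested outer membrane genes 0 passed the threshold, and their median difference was 0.01 against 0.00 over all genes. At an unadjusted p under 0.05, 4 were higher in mitoplasts (9.52%, against 1.45% of all genes) and 0 lower (1.35% of all genes). CPM ranges were separate for 7 higher (16.7%, against 4.70% of all genes) and 2 lower (4.76%, as over all genes). The count at an unadjusted p under 0.05 rested on the scaling and on single libraries. With libraries scaled by their total counts it was 0 higher and 0 lower, where 164 higher and 197 lower of all 26483 genes passed. The count thus fell over all genes as well, and the median of the list moved only to -0.00066. The scaling factors left out there were 1.21 to 1.23 in the 6 libraries and 0.526 to 0.679 in the crude ones. It was 1 higher and 0 lower without proteinase K library 1, 2 higher and 1 lower without proteinase K library 3, and 2 higher and 2 lower without mitoplast 3. Bnip3l, a receptor for the removal of mitochondria by autophagy, was at 41.7, 50.7 and 49.3 CPM in mitoplasts and 38.9, 40.3 and 38.6 CPM with proteinase K (0.27 ± 0.0951). Bcl2l13, another mitophagy receptor, was at 40.2, 34.5 and 34.3 CPM and 26.0, 33.9 and 28.8 CPM (0.31 ± 0.113). Mtx2, a subunit of the outer membrane sorting and assembly machinery, was at 16.7, 15.5 and 18.6 CPM and 12.8, 14.2 and 13 CPM (0.34 ± 0.151). In each of these 3 genes every mitoplast library was above every proteinase K library, for Bcl2l13 only just. Mfn2, which fuses outer membranes and tethers them to the endoplasmic reticulum, was nearly equal, at 67.9, 69.1 and 73.1 CPM against 70.6, 70.8 and 72.2 CPM (-0.02 ± 0.0817). These are mRNAs of outer membrane proteins, and they do not measure the membrane itself.

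Genes of the respiratory chain that the nucleus encodes did not pass the threshold in either direction. Of 33 tested complex I genes 23 had a positive difference, with a median of 0.07, and none had separate ranges. Of 40 genes of complexes II to V 18 were positive, with a median of -0.03. Their ranges were separate for 2 higher (5.0%) and 3 lower (7.5%), against 4.70% and 4.76% of all genes. Cox6a2, the heart and muscle form of a cytochrome c oxidase subunit, was at 6.46, 6.27 and 6.99 CPM in mitoplasts and 9.63, 9.52 and 8.31 CPM with proteinase K (-0.48 ± 0.211). Atp5mf, a membrane subunit of ATP synthase, lay the other way, at 18.5, 14.5 and 14.0 CPM against 13.7, 9.96 and 13 CPM (0.35 ± 0.164). The groups of both genes did not overlap, at counts of 31 to 54 and 45 to 89 per library. Cox6c, another small oxidase subunit, overlapped between groups (0.36 ± 0.199).

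Several lists of matrix genes had more negative than positive differences, with 0 members past the threshold. Of 35 genes of the citric acid cycle and fatty acid oxidation 12 were positive and 23 negative, with a median of -0.04. Their ranges were separate for 0 higher and 5 lower (14.3%, against 4.76% of all genes), and 0 were at an unadjusted p under 0.05. Cs, the citrate synthase that opens the cycle, was at 36.7, 32.3 and 34.3 CPM in mitoplasts and 35.7, 40.7 and 42.0 CPM with proteinase K (-0.19 ± 0.103), overlapping. Hadhb, a subunit of the trifunctional enzyme of fatty acid oxidation, overlapped too (-0.24 ± 0.144). Among 27 genes of the intermembrane space and inner membrane carriers the median was 0.00. Their ranges were separate for 0 higher and 1 lower (3.70%, against 4.76% of all genes). Slc25a12, an aspartate and glutamate carrier, was lower in every mitoplast library, at 39.8, 38.4 and 35.4 CPM against 44.0, 40.1 and 40.7 CPM (-0.14 ± 0.0948). Opa1, which fuses inner membranes, overlapped (0.11 ± 0.0941). Of 23 import and chaperone genes 6 were positive and 17 negative, with a median of -0.03. Their ranges were separate for 1 higher (4.35%) and 2 lower (8.70%), against 4.70% and 4.76% of all genes. The medians were 0.01 for 30 genes of mitochondrial DNA and RNA maintenance, among them Polrmt, the mitochondrial RNA polymerase (-0.10 ± 0.0984), and -0.02 for 72 mitochondrial ribosomal protein genes. None of these lists had a member past the threshold.

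**Figure D4:**
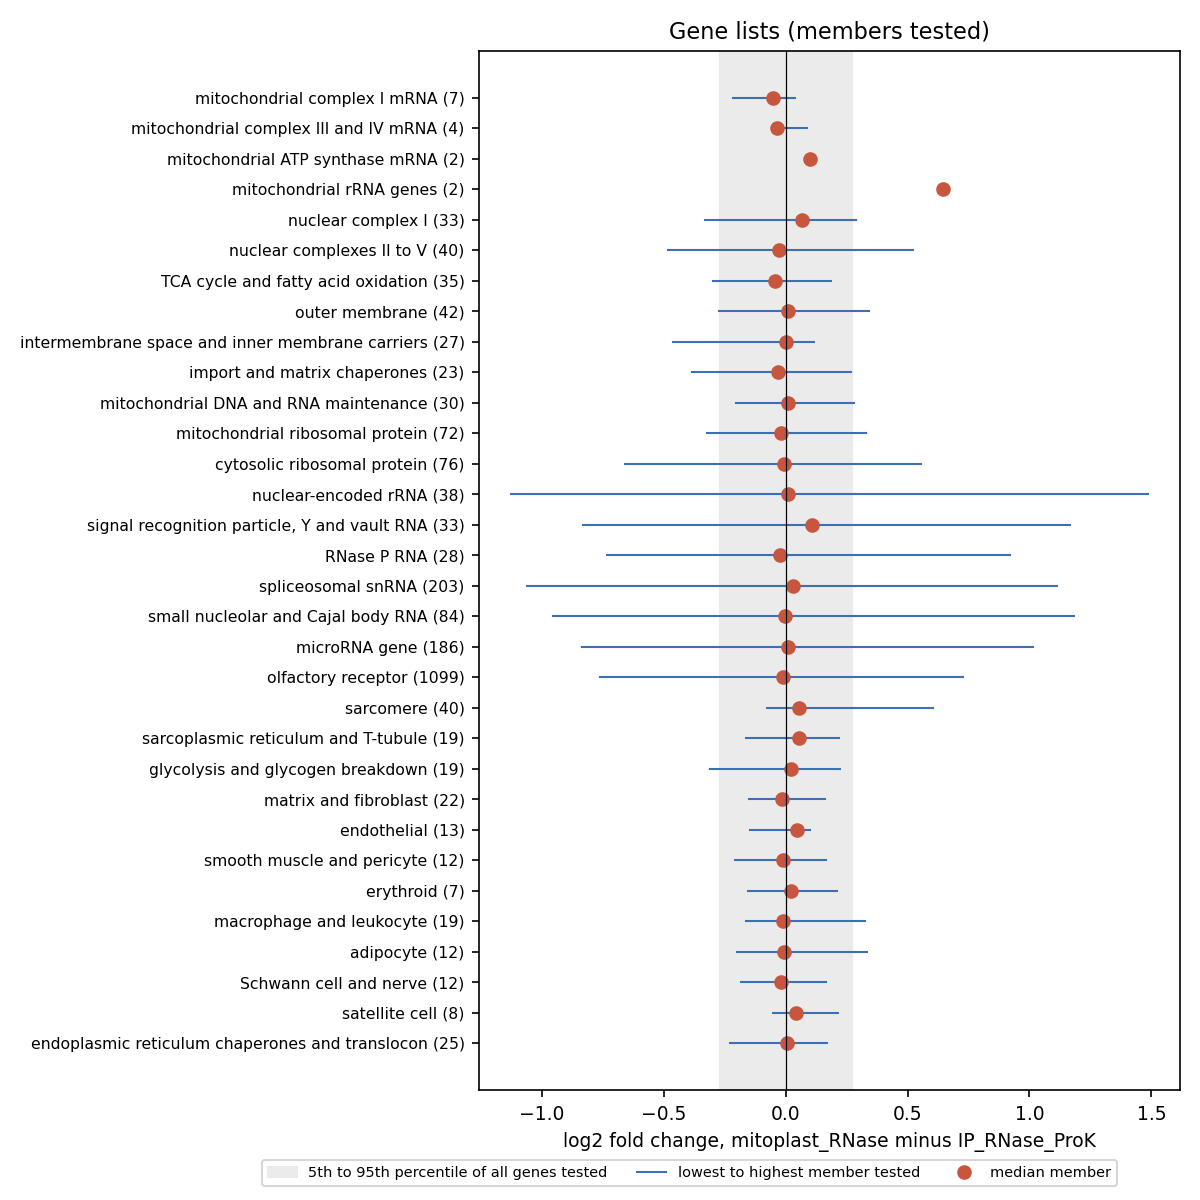
Median log2 fold change (mitoplast_RNase minus IP_RNase_ProK, red points) and the lowest to highest member (lines) of each gene list, with the number of members tested in brackets; the grey band holds the 5th to 95th percentile of all genes tested. All medians lie inside the band except that of the 2 mitochondrial rRNA genes at 0.65.

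RNA of the cytosolic translation machinery was examined next, since RNA attached to the outer surface is one form in which cytosolic RNA can stay with the organelle. Of 96 cytosolic ribosomal protein genes 76 were tested, with 37 positive and 39 negative differences and a median of -0.01. Their ranges were separate for 5 higher (6.58%) and 4 lower (5.26%), against 4.70% and 4.76% of all genes. Rps16, of the small subunit, was at 20.0, 23.1 and 18.3 CPM in mitoplasts against 16.2, 16.6 and 16.2 CPM (0.33 ± 0.136), and Rpl7a, of the large subunit, at 40.6, 37.4 and 40.4 CPM against 31.7, 33.9 and 35.6 CPM (0.23 ± 0.0976). Rplp1, a protein of the ribosomal stalk, had a negative difference with overlapping groups (-0.34 ± 0.158). Many ribosomal protein genes have near-identical processed copies, so single values are uncertain.

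The genes annotated as 18S or 28S were taken as a list after their values were seen. Of the 3 tested, 1 was higher in mitoplasts with separate groups (33.3%) and 0 were lower, against 4.70% and 4.76% of all genes. The other 2 overlapped. The gene annotated as 28S, ENSRNOG00000064743, had 133, 95 and 101 counts in mitoplasts and 60, 31 and 40 with proteinase K, which is 27.7, 18.6 and 22.1 CPM against 10.7, 6.86 and 8.52 CPM. All mitoplast libraries were above all proteinase K libraries. The difference was 1.36 ± 0.304 (interval 0.75 to 1.97), with an adjusted p of 0.540 by edgeR with Benjamini-Hochberg on 12 libraries. In IP_RNase the gene was at 8.37, 4.71 and 39.7 CPM, a range that holds all 6 libraries. The gene annotated as 18S, ENSRNOG00000068307, was at 354, 309 and 393 CPM in mitoplasts and 342, 407 and 398 CPM with proteinase K, an overlapping difference of -0.12 ± 0.164. A second 18S gene, ENSRNOG00000062337, had few counts, at 3.96, 4.70 and 1.75 CPM against 3.21, 3.32 and 4.05 CPM, and differed by 0.0033 ± 0.469. In the 38 tested genes annotated as nuclear-encoded rRNA under their symbol, out of 204 in the table, the median was 0.01. The largest difference there was a 5S copy, ENSRNOG00000065370, at 19, 11 and 9 counts against 6, 3 and 5 (1.49 ± 0.450). These are repeated genes whose reads can match many copies, and the sources used here do not give how such reads were counted.

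Among small noncoding RNAs, the list of signal recognition particle, Y and vault RNA had a median of 0.11 over 33 tested of 46 genes, with 22 positive and 11 negative. The signal recognition particle directs nascent secretory proteins to the endoplasmic reticulum, and its RNA has many genomic copies. The copy ENSRNOG00000048993 had 37, 66 and 34 counts in mitoplasts and 18, 20 and 24 with proteinase K (1.17 ± 0.366), and the copy ENSRNOG00000055587 had 20, 24 and 19 against 13, 10 and 8 (1.05 ± 0.337). Groups did not overlap for either copy. Over the list, ranges were separate for 5 higher (15.2%) and 1 lower (3.03%), against 4.70% and 4.76% of all genes. The copy ENSRNOG00000055825, with 37, 62 and 19 counts against 25, 23 and 21, overlapped (0.80 ± 0.312). The gene named Rn7sl1 had 4 to 13 counts in the 6 libraries, and its interval, -3.92 to 4.19, gives no bound of use.

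Rpph1, the RNA subunit of nuclear RNase P, which trims the ends of transfer RNA precursors, had 44, 76 and 49 counts in mitoplasts and 34, 40 and 17 with proteinase K. On the CPM scale this was 9.17, 14.9 and 10.7 against 6.06, 8.85 and 3.62, so the groups were separate by a narrow gap. The difference was 0.92 ± 0.284 (interval 0.35 to 1.49). It was 0.27 between mitoplasts and IP_RNase and -0.65 between proteinase K-treated mitochondria and IP_RNase, neither past the threshold. Over the 28 tested genes of the RNase P list, out of 35, the median was -0.02. Ranges were separate for 1 higher and 1 lower (3.57% each), against 4.70% and 4.76% of all genes.

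Spliceosomal snRNA genes (203 tested of 1352) had a median of 0.03, small nucleolar and Cajal body RNA genes (84 of 345) 0.00, and microRNA genes (186 of 425) 0.01. Snord17, a guide RNA for rRNA modification, had 24, 35 and 31 counts in mitoplasts and 17, 19 and 12 with proteinase K, without overlap (0.93 ± 0.303). Snord13, another RNA of rRNA maturation, lay the other way without overlap, with 8, 12 and 7 counts against 23, 13 and 18 (-0.95 ± 0.354). The small nucleolar and Cajal body list had 3 higher (3.57%) and 3 lower (3.57%) at an unadjusted p under 0.05, against 1.45% and 1.35% of all genes. Its ranges were separate for 5 higher (5.95%) and 6 lower (7.14%), against 4.70% and 4.76% of all genes. The microRNA genes had 3 higher (1.61%) and 1 lower (0.538%) at an unadjusted p under 0.05, near or below those shares of all genes. Their smallest p values belonged to genes with few counts. Mir141 had 11, 11 and 12 counts against 14, 24 and 24 (-0.84 ± 0.346), Mir873 had 8, 15 and 11 against 6, 3 and 8 (1.01 ± 0.441), and Mir140 had 34, 28 and 35 against 33, 15 and 18 (0.60 ± 0.267). All 3 overlapped on the CPM scale. Counts at a microRNA gene in a total RNA library come from any transcript over it and do not measure the mature microRNA.

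The sarcomere genes, which encode the contractile apparatus of the muscle fibre, had more positive than negative differences, with 0 past the threshold and the highest values in mitoplast library 2. Of the 40 genes 27 had a positive difference, and their median was 0.06 against 0.00 over all genes, or 0.05 with 24 positive when libraries were scaled by their total counts. At an unadjusted p under 0.05, 6 were higher (15%, against 1.45% of all genes) and 0 lower, and ranges were separate for 8 higher (20.0%, against 4.70% of all genes) and 0 lower. With the scaling by total counts 3 were higher at that p, where 164 of all genes were. Leaving out mitoplast 2 left 1 gene at an unadjusted p under 0.05, a median of 0.04 and 26 positive, and 2 and 3 genes were left without proteinase K libraries 1 and 3. The list took 0.578%, 0.735% and 0.526% of the counts of mitoplasts 1, 2 and 3 (mean 0.613% ± 0.109) and 0.482%, 0.517% and 0.491% with proteinase K (mean 0.497% ± 0.0179; SD, n = 3 each). The lowest mitoplast library was just above the highest proteinase K library. Without Ttn the means were 0.384% ± 0.0336 and 0.345% ± 0.00600. Leaving out mitoplast 2 took the difference in share from 0.116 to 0.0552 percentage points with all members, and from 0.0391 to 0.0199 without Ttn.

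Ttn, the giant elastic protein titin, was at 1721, 2572 and 1356 CPM in mitoplasts and 1157, 1352 and 1207 CPM with proteinase K. Mitoplast 2 was far above the rest, and mitoplast 3 barely exceeded the highest proteinase K library. The difference was 0.60 ± 0.276. Myh4, the fast type 2B myosin heavy chain, was at 217, 266 and 184 CPM against 169, 177 and 171 CPM (0.37 ± 0.104). Tnnt3, the fast skeletal troponin T, was at 73.1, 107 and 61.6 CPM against 56.3, 61.3 and 53.2 CPM (0.50 ± 0.133). In these 3 genes mitoplast 2 was the highest of the 6 libraries and mitoplast 3 the lowest mitoplast. Mylk2, the skeletal myosin light chain kinase, overlapped (0.25 ± 0.114). Mybpc1, a myosin-binding protein also at an unadjusted p under 0.05, had 0.20 ± 0.0906 and was picked out after its value was seen. Acta1, the skeletal actin, was at 27.1, 30.0 and 23.6 CPM against 24.4, 27.4 and 30.0 CPM, with a difference of -0.01 ± 0.144. The myosin heavy chain paralogs share sequence, so that of Myh4 is uncertain.

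Other muscle lists also had more positive than negative differences, with 0 members past the threshold. This was not particular to muscle lists, since 10 of 13 endothelial genes and 23 of 33 nuclear-encoded complex I genes were positive too. Of 19 sarcoplasmic reticulum and T-tubule genes 14 were positive (median 0.06, as in the sarcomere list), with 0 at an unadjusted p under 0.05. Their ranges were separate for 3 higher (15.8%) and 1 lower (5.26%), against 4.70% and 4.76% of all genes. Among them was Ryr1, the calcium release channel, at 365, 402 and 366 CPM against 329, 346 and 337 CPM (0.16 ± 0.0906, ranges separate). Of 19 genes of glycolysis and glycogen breakdown 13 were positive (median 0.02), with separate ranges for 3 higher (15.8%, against 4.70% of all genes) and 0 lower. At an unadjusted p under 0.05, 2 were higher (10.5%, against 1.45% of all genes) and 0 lower. Pygm, the muscle glycogen phosphorylase, was at 61.9, 64.0 and 60.7 CPM against 56.2, 56.6 and 46.9 CPM (0.22 ± 0.0914), and Pfkm, the muscle phosphofructokinase, at 77.9, 86.8 and 76.0 CPM against 66.3, 74.8 and 73.5 CPM (0.17 ± 0.0831). Neither gene's groups overlapped. Ckm, the muscle creatine kinase, did not separate the groups, at 23.7, 21.3 and 23.6 CPM against 19.6, 25.7 and 21.7 CPM (0.04 ± 0.123).

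Markers of the other cell types of muscle had 0 members past the threshold. The medians were -0.02 for 22 matrix and fibroblast genes, 0.05 for 13 endothelial, -0.01 for 12 smooth muscle and pericyte, 0.02 for 7 erythroid, -0.01 for 19 macrophage and leukocyte, 0.00 for 12 adipocyte, -0.02 for 12 Schwann cell and nerve and 0.04 for 8 satellite cell genes. The endoplasmic reticulum, a common companion of isolated mitochondria, had a median of 0.01 over 25 chaperone and translocon genes. Negative differences were found in 13 of the 22 matrix and fibroblast genes and 3 of the 13 endothelial genes. They were found in 11 of the 19 macrophage and leukocyte genes and 6 of the 12 adipocyte genes, and single members lay on both sides. Col1a1, the collagen chain of fibroblasts, was at 126, 125 and 133 CPM against 112, 120 and 111 CPM (0.16 ± 0.0762), C1qb, a complement gene of macrophages, at 17.1, 18.6 and 20.5 CPM against 17.3, 13.5 and 13.6 CPM (0.33 ± 0.145), and Adipoq, the adipocyte hormone adiponectin, at 16.2, 13.7 and 8.95 CPM against 10.3, 9.07 and 11.5 CPM (0.34 ± 0.188). Only Col1a1 of these 3 had separate groups. On the other side lay Sparc, a matrix glycoprotein (-0.15 ± 0.0988), Mrc1, the macrophage mannose receptor (-0.16 ± 0.0905), and Cidec, a lipid droplet protein of adipocytes (-0.20 ± 0.103), of which Cidec had separate groups. Ranges were separate for 2 higher (9.09%) and 0 lower of the matrix and fibroblast genes, and for 1 higher and 1 lower (8.33% each) of the adipocyte genes. The olfactory receptor genes, of which 1099 were tested, had a median of -0.01, with separate ranges for 44 higher (4.0%) and 58 lower (5.28%), near the 4.70% and 4.76% of all genes.

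Among genes with a symbol and a mean of at least 50 counts, the 5 with the smallest unadjusted p on the higher side in mitoplasts were Gm22988, Tnnt3, Myh4, Ppil4 and Kpna1, and none of them passed the threshold. Gm22988 (ENSRNOG00000060816), whose function the sources used here do not give, had the smallest, with 85, 137 and 37 counts in mitoplasts and 22, 33 and 26 with proteinase K. On the CPM scale this was 17.7, 26.8 and 8.08 against 3.92, 7.30 and 5.54, without overlap. The difference was 1.69 ± 0.364 (interval 0.96 to 2.42; edgeR adjusted p with Benjamini-Hochberg 0.540). Against IP_RNase, at 2.09, 1.98 and 12.8 CPM, it was higher in mitoplasts by 1.63 (edgeR adjusted p 0.0434), while proteinase K-treated mitochondria differed by -0.06.

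Ppil4, a nuclear peptidyl-prolyl isomerase, was at 28.1, 28 and 24.9 CPM in mitoplasts against 20.1, 19.7 and 20.2 CPM (0.43 ± 0.122), and Kpna1, a nuclear import receptor, at 42.3, 45.6 and 36.2 CPM against 30.5, 31.2 and 34.9 CPM (0.37 ± 0.105). The 5 on the lower side in mitoplasts were Terb2, a meiotic telomere protein (9.58, 11 and 10.3 CPM against 13.5, 14.4 and 16.6 CPM; -0.52 ± 0.166), Arpc1b, an actin-nucleating complex subunit (-0.29 ± 0.0950), B4galt4, a galactosyltransferase (-0.39 ± 0.129), Coasy, the coenzyme A synthase (-0.32 ± 0.108), and Ripk1, a kinase of cell death signalling (-0.28 ± 0.0950). All 7 had separate groups, and all 7 had an edgeR adjusted p of 1.00 after Benjamini-Hochberg adjustment. They were picked by a small p in these same libraries, so their separation follows largely from the choice. Over all genes 4.70% were separate and higher in mitoplasts and 4.76% separate and lower. Coasy differed by 0.53 between proteinase K-treated mitochondria and IP_RNase (edgeR adjusted p 0.0183). It was picked on the same proteinase K libraries, so this value is not separate evidence.

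The count of genes past the threshold depended on which libraries were fitted together. When only the 6 libraries were fitted, edgeR's quasi-likelihood test called 11 genes higher in mitoplasts (0.0422% of 26050 tested) and 0 lower, and with the 9 bead-captured libraries it called 6 higher (0.0227% of 26434) and 0 lower. Among the 11 were Gm22988, the 28S gene, the signal recognition particle copy ENSRNOG00000048993, Rpph1, both mitochondrial rRNA genes, Ttn, Tnnt3, Myh4 and Pde4dip, a Golgi and centrosome scaffold named after its value was seen (0.27 ± 0.118). Those called with 9 libraries included Gm22988, the 28S gene, Ttn, Tnnt3 and Myh4. The fold changes hardly differed between these fits, and the standard errors did. For the rRNA gene ENSRNOG00000043866 the difference was 0.64 in each, with an SE of 0.353 on 12 libraries, 0.235 on 9 and 0.114 on 6, against an SE of 0.448 from the scatter of its own 6 values. For Ttn the SE was 0.276, 0.124 and 0.0861, against 0.278 from its own values. The common biological coefficient of variation was 0.0644, 0.0498 and 0.0408 in the 3 fits.

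DESeq2 on the same 6 libraries called 1 gene, the 28S gene (log2 difference 1.37, adjusted p 9.11e-06). Of the 11 genes, 9 had separate CPM ranges and the 2 mitochondrial rRNA genes overlapped. In 8 of the 11 mitoplast 2 was the highest of the 6 libraries, and in 3 it was mitoplast 1. Leaving mitoplast 2 out of the 6-library fit left 2 of the 11 past the threshold, Gm22988 and the 28S gene, and these 2 were also called whichever of the 6 libraries was left out. The third IP_RNase library was the highest of its group in several of the 11, at 21.5 CPM for the signal recognition particle copy, 2098 CPM for Ttn and 12.8 CPM for Gm22988. For 8 of the 11 genes every crude library was above all 6 libraries. The mean in crude mitochondria was 1004 CPM for the 28S gene and 743 CPM for the signal recognition particle copy, but 7.70 CPM for Gm22988. The part of RNA carried over from outside the organelle in these differences was not tested.

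**Figure D5:**
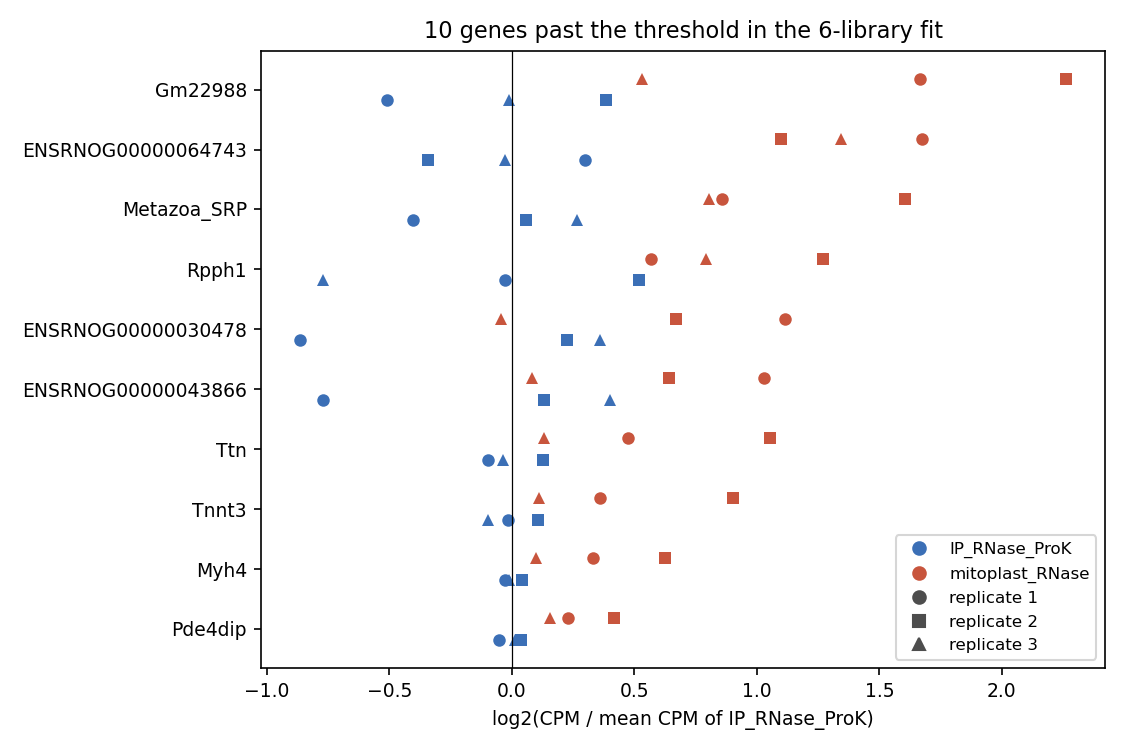
Level of 10 genes past the threshold in the 6-library fit, in each library, as log2 of the CPM over the mean CPM of IP_RNase_ProK; circles, squares and triangles are replicates 1, 2 and 3. Mitoplast 2 is the highest library in most of them, and mitoplast 3 lies within or just above the IP_RNase_ProK range for both mitochondrial rRNA genes (ENSRNOG00000030478 and ENSRNOG00000043866), Ttn and Tnnt3.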

How the data were processed

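RNA-seq libraries of 12 mitochondrial preparations were used, 3 in each of 4 groups taken from the titles; the comparison concerns 6 of them. The authors deposited raw read counts, whole numbers for each Ensembl gene, as the column headers and values show. Per the submitters' processing notes the authors used FastQC 0.74, cutadapt 4.6, STAR 2.7.11a and HTSeq with mRatBN7.2. Annotation release, strand setting and the handling of multi-mapping reads: not given in the sources used here, so overlapping and antisense genes may share counts. The table held 0 columns of no sample, and 6515 of its genes have no symbol. Positions, lengths and sequences were not used.

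Counts were fitted with edgeR 4.0.16 in R 4.3.3 (quasi-likelihood F test, TMM scaling, filterByExpr with a minimum count of 10) in a model of 4 groups and all 12 libraries, with Benjamini-Hochberg adjustment and a threshold of 0.05. CPM use TMM-scaled library sizes. The SE is the absolute log2 difference divided by the square root of F, and values after ± with a log2 difference are SE. Shares were compared by exact permutation tests with SciPy 1.17.1. PCR copies are not independent molecules. The code was tested on simulated data.

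Named genes were the 5 with the smallest unadjusted p per direction among genes with a symbol and a mean of at least 50 counts (no gene passed the threshold), the mitochondrial mRNAs and rRNA genes, Rpph1, Rn7sl1 and, from 32 gene lists, up to 3 members with the smallest p and up to 2 with the highest level. Of these the text gives a selection. The 2 most counted mitochondrial genes without an mRNA name were taken as the rRNA genes. The comparison, members and lists were chosen with earlier results of these data known. Some genes were not analysed here, and 1 gene that the rule took is not reported here. Alternatives were other scalings, no filter on low counts, DESeq2 1.42.0, fits of 6 or 9 libraries, a replicate block and leaving out each library.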

Additional observations from a re-analysis of the deposited data

How the results depend on the processing

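The count of genes past the threshold stayed at 0 in each direction under the other scalings, without the filter on low counts, with DESeq2 on 12 libraries and with the replicate block (364 higher and 326 lower at an unadjusted p under 0.05 there). Deviations of same-numbered libraries from their group means had correlations of -0.02, 0.02 and -0.04. These cannot decide whether the numbers pair libraries, since an effect shared in few genes would not show. The sources used here do not give what the numbers mean. With same-numbered pairs kept together, the exact sign-flip test of the ratio of rRNA to mRNA gave p = 0.25, the smallest that 3 pairs can give. The count was 11 higher with only the 6 libraries, 6 with the 9 bead-captured libraries and 1 with DESeq2 on only the 6 libraries, the last chosen after seeing the data. Leaving out each library gave 0 to 1 higher and 0 lower in the 12-library fit, where the 1 was Gm22988 without mitoplast 3 (log2 difference 2.02, edgeR adjusted p 0.0199). In the 6-library fit, also chosen after seeing the data, it gave 9, 2 and 16 higher without mitoplasts 1, 2 and 3 and 6, 13 and 10 without proteinase K libraries 1, 2 and 3, and 1 lower only without mitoplast 3. The cause was not tested.

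Leaving out each library moved the difference in mitochondrial mRNA share from -0.144 to 0.147 percentage points. The log2 differences whose sign changed ranged over these values: Mt-nd1 -0.14 to 0.069, Mt-nd2 -0.14 to 0.049, Mt-nd4 -0.077 to 0.17, Mt-nd4l -0.063 to 0.15, Mt-nd5 -0.089 to 0.17, Mt-nd6 -0.21 to 0.064, Mt-cyb -0.14 to 0.10, Mt-co1 -0.056 to 0.29, Mt-co2 -0.13 to 0.10, Mt-co3 -0.17 to 0.13, Mt-atp6 -0.038 to 0.23, Mt-atp8 -0.068 to 0.24, Acta1 -0.10 to 0.070, Ckm -0.050 to 0.15 and Rn7sl1 -0.18 to 0.45. Mt-co2 was at 0.00069 with the replicate block. Both mitochondrial rRNA genes and the ratio of rRNA to mRNA kept their sign throughout, while the rRNA difference of 0.65 (median of the 2 genes) ranged from 0.36 to 0.88 when single libraries were left out. Scaling on the mitochondrial mRNAs, also chosen after seeing the data, put the median of all genes at -0.013 and that of the sarcomere genes at 0.03, with 24 of 40 positive. Depth limits genes under 50 counts, whose intervals were wider, and 3 libraries a group cannot give an exact p below 0.1.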

Other observations

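Nuclear genes that were much lower in captured mitochondria than in crude mitochondria were looked at as a set. They were chosen on the difference between the IP_RNase and crude libraries in the fit of all 12 libraries. Those libraries are not in the contrast of mitoplasts with proteinase K-treated mitochondria, but they enter the scaling and spread of the same fit. The values are given as a description with no test. The 322 genes whose log2 level fell short of crude mitochondria by over 1 had a median difference (mitoplast minus proteinase K) of 0.02, and 183 were positive. Their CPM ranges were separate for 33 higher in mitoplasts (10.2%) and 11 lower (3.42%), against 4.70% and 4.76% of all genes tested. The 92 genes short by over 2 had a median of 0.04, with 56 positive (60.9%) and separate ranges for 16 higher (17.4%) and 3 lower (3.26%). These 92 held 12 sarcomere and 28 cytosolic ribosomal protein genes. They took 0.519%, 0.632% and 0.475% of the counts of mitoplasts 1, 2 and 3, 0.438%, 0.468% and 0.445% of proteinase K libraries 1, 2 and 3, and 3.41% to 4.07% in crude mitochondria. Every mitoplast library was above every proteinase K library, and the highest of the 6 was again mitoplast 2. Without mitoplast 2 the median was 0.05 and 55 were positive.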
